A study of Mus musculus with 54 samples.

Results

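The genes described here are Ocstamp and 6 others of the osteoclast programme (Dcstamp, Atp6v0d2, Acp5, Ctsk, Nfatc1 and Tnfrsf11a), 7 of the 16632 genes counted in primary mouse microglia. They were chosen by symbol, and the choice used a measured value: Ocstamp stood at the floor of detection in untreated cells and high in cells given alpha-synuclein (aSyn). For these 7 genes the contrast of aSyn-treated with untreated cells is therefore given as a description with no test. All 7 passed the filter on low counts, Ocstamp only through the aSyn-exposed groups where it is high, so its passing supports nothing. In co-cultured cells, Ocstamp and Acp5 were high in the cells that had received aSyn and low in those that had not, at every time measured. Ctsk and Tnfrsf11a differed far less, Nfatc1 showed no difference beyond its error, and Dcstamp and Atp6v0d2 depended on the experiment.

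Osteoclasts form when precursors of the monocyte and macrophage lineage, to which microglia are related, receive M-CSF and RANKL. RANKL binds its receptor RANK, encoded by Tnfrsf11a, and the signal leads to the transcription factor NFATc1, which turns on the genes of cell fusion and bone resorption. DC-STAMP and OC-STAMP, the products of Dcstamp and Ocstamp, are membrane proteins needed for precursors to fuse into multinucleated cells. Atp6v0d2 encodes a subunit of the proton pump that also takes part in that fusion. Acp5 encodes tartrate-resistant acid phosphatase, the classical histochemical marker of osteoclasts, and Ctsk encodes cathepsin K, the protease that cleaves bone collagen. Acp5 and Ctsk products are lysosomal enzymes and are made by other macrophages too.

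The cells were microglia of C57BL/6 mice, from flasks plated with neonatal brain, each flask with the cells of a pair of brains, and grown with supernatant of L929 cells, a fibroblast line that secretes M-CSF. All groups share that medium, and no group carries a transgene or deletion. Untreated cells (Untreated_Ctrl) gave 6 libraries and cells kept with aSyn but without co-culture (aSyn_Donor) gave 4. Donors had taken up 1 µM Atto-488-labelled aSyn for 14 h, and acceptors had been stained with CellTracer Violet for 15 min. The 22 donor and 22 acceptor libraries came from mixtures of both populations, sorted apart by flow cytometry after 0, 15, 30, 60, 150 or 300 min. The labels do not say how the 0 min cells were handled, nor whether the cells without co-culture were sorted. Donors and acceptors differ in aSyn, in the violet dye and in how they were seeded, and these cannot be told apart in that contrast. Untreated cells and cells with aSyn alone both lack the dye. The replicate numbers 1 to 4 in the titles are called experiments here. The labels give passage 3, 1, 2 and 2 for experiments 1 to 4. Experiments 3 and 4 thus share a passage, and otherwise passage and experiment cannot be told apart. Nothing in the labels says that they are separate animals, so p-values measure the spread between these samples only.

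Libraries held 7807389 to 15537493 counts. Levels are given as CPM, counts scaled to a common library size after TMM normalization. The reads come from the 3′ ends of transcripts, so a level is not corrected for length and levels are compared within a gene only. Untreated libraries of the same number (2 and 4) were summed, which leaves 52 samples in 14 groups. Experiment 4 carries facility numbers from a later run of numbers than the other 3, and 18.2% of its counts on average fell on the ribosomal precursor Rn45s, against 6.60% in the others. Of the 7 microglial markers, all were listed and their summed level lay between 1512 and 4820 CPM in donors and 2396 and 4289 CPM in acceptors. Astrocyte markers (6 of 6 listed) summed to 8.01 to 29.2 CPM in donors and 7.16 to 35.7 CPM in acceptors, and to 10.4 to 108 CPM in untreated and 10.7 to 20.7 CPM in aSyn-treated cells. Oligodendrocyte-lineage markers (5 of 5 listed) were the most abundant of other cell types, at 63.8 to 149 CPM in donors, 67.1 to 213 CPM in acceptors, 112 to 531 CPM in untreated and 74.3 to 230.5 CPM in aSyn-treated cells. Fibroblast markers (3 of 3) reached 20.2 CPM, monocyte markers (2 of 3 listed, Ly6c2 not) 7.11 CPM and neuronal markers (4 of 4) 4.97 CPM. Their part in the results below was not tested. Of 20 markers tested between the summed donors and acceptors, edgeR and DESeq2 each called 0, against 0.00789% and 2.06% of all genes. Of the 20, 1 had an unadjusted p below 0.05. In bulk RNA, fewer cells expressing a gene and less RNA of it per cell cannot be told apart.

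Ocstamp lies on chromosome 2 (GRCm38, 165393760 to 165400405, minus strand). In untreated cells it had 3, 0, 0 and 3 counts in experiments 1 to 4, which is 0.303, 0, 0 and 0.113 CPM. With aSyn alone it had 101, 88, 8 and 32 counts, or 7.44, 6.25, 0.636 and 2.79 CPM. Every aSyn-treated sample was above every untreated one, and the mean, 4.28 ± 3.13 CPM (SD, n = 4), was at least 21.3-fold higher than a floor of 3 counts in each of the 4 untreated samples, with libraries of the same number summed. This is the pattern for which Ocstamp was chosen, and 4.5% of all genes had samples that were higher in the same way without overlap, from which nothing is read here. In experiment 3 the aSyn-treated sample was only just above the floor, so the bound holds for the mean and not in each experiment.

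Donors, whose libraries took no part in the choice, had Ocstamp in every library. In experiment 1 the donors stood at 7.00, 7.71, 5.10, 4.38, 6.27 and 4.86 CPM at 0, 15, 30, 60, 150 and 300 min (57 to 88 counts). In experiment 2 they stood at 4.07, 4.30, 3.08, 3.69 and 2.58 CPM at 0, 15, 30, 150 and 300 min. The first of these experiments was thus the higher at each time they share. In experiment 3 the donors stood at 1.87, 1.28, 1.35, 0.440, 1.76 and 3.83 CPM at the 6 times, and the 60 min value rests on 5 counts. In experiment 4 they stood at 2.86, 2.67, 2.98, 4.16 and 2.74 CPM from 15 to 300 min. Among the experiments with a donor library, experiment 3 was the lowest at all times up to 150 min and passed experiments 2 and 4 at 300 min. Donors come from the same kind of exposure as the aSyn-treated cells and carry the same experiment numbers, so this is a repeat within experiments rather than a new set of them.

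Acceptors had almost no Ocstamp. Of 22 acceptor libraries, 11 had 0 counts and 17 had 3 or fewer, where a count of 0 allows up to 3. In experiment 1 acceptors had 0, 0.28, 0.20, 0, 1.08 and 0 CPM at 0 to 300 min, and the 1.08 at 150 min (11 counts) was the highest of all acceptors. In experiment 2 the only acceptor above 0 had 0.38 CPM (6 counts, 30 min). In experiment 3 acceptors reached 0.61 CPM at 0 min (9 counts) and 0.33 CPM at 150 min (5 counts), and in experiment 4 at most 0.32 CPM (4 counts, 150 min). The donors lay above the acceptors without overlap at each of the 6 times, as did 0.304% of all genes, and in 21 of 21 pairs of the same time and experiment, as did 2.35% of all genes. Across times the ranges meet, since the 60 min donor of experiment 3 was below that acceptor of experiment 1. Libraries of an experiment at several times may come from the same cultures. Times and pairs are thus not separate repeats, here and for the genes below.

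Counts were also summed over 15, 30 and 150 min, the times at which each experiment has a library of both kinds. Ocstamp then had 224, 154, 57 and 124 counts in the donors of experiments 1 to 4 and 17, 6, 5 and 6 in the acceptors. Donors were 13.3-, 23.2-, 12.5- and 20.4-fold higher, 3.72 ± 1.99 against 0.230 ± 0.165 CPM (SD, n = 4 each). The log2 difference was 4.01 (SE 0.61), and edgeR's quasi-likelihood test did not call it (adjusted p 0.101). That test called 0.00789% of the 12672 genes, which is 1 gene, the adhesion receptor Adgre5, named here after its values were seen. The summed test called 0 of the 7 genes described here, 4 of which had an unadjusted p below 0.05, as had 1211 of the 12672 genes. DESeq2 called Ocstamp and Acp5 and 2.06% of all genes. With the experiment as a block, Ocstamp was called (4.03, SE 0.30, edgeR adjusted p 0.00766), as were 0.773% of all genes. Over the 9 alternatives the adjusted p ran from 7.54e-10 to 0.556 and the difference from 3.87 to 4.61. Ocstamp passed the filter of the summed counts through the donors only, so its calls here add no support.

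Tested at single times in a fit of all 14 groups, Ocstamp was called at 15, 30 and 60 min, when the test called 0.888%, 0.805% and 0.418% of all genes, and 0.342% of all genes were called at as many times or more. At 15 min donors had 4.03 ± 2.74 CPM (SD, n = 4) and were at least 14.2-fold above the acceptors' floor (edgeR adjusted p 0.0121). At 30 min the log2 difference was 4.23 (SE 1.03, edgeR adjusted p 0.0311). At 60 min donors were at least 10.9-fold higher (edgeR adjusted p 0.0310), with 3 donor libraries, of which that of experiment 3 had 0.440 CPM (5 counts). Bounds of this kind hold for the donor mean and not in each experiment. The gaps at the other times were similar in size but were not called. They were 4.20 (SE 1.16, edgeR adjusted p 0.135) at 0 min, 3.23 (SE 0.95, adjusted p 0.185) at 150 min and at least 13.2-fold (adjusted p 0.123) at 300 min, when 0.251%, 0.167% and 0.0304% of all genes were called. With the replicate block Ocstamp was called at all 6 times, with edgeR adjusted p from 0.000245 to 0.0107, when 4.28%, 9.57%, 10.8%, 6.7%, 5.19% and 1.38% of all genes were called in time order. Without experiment 1, 2 or 4 it was called at 0 times and without experiment 3 at 4, each in the fit with no block, where fewer samples remain. In fits of only the 2 groups it was called at 0 times, with log2 differences of 5.02 at 15 min (edgeR adjusted p 0.0719) and 4.22 at 30 min (0.124), and did not pass the filter at 60 min. In the fit of 14 groups Ocstamp passed the filter through the exposed groups only, so its calls at single times add no support.

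**Figure D1:**
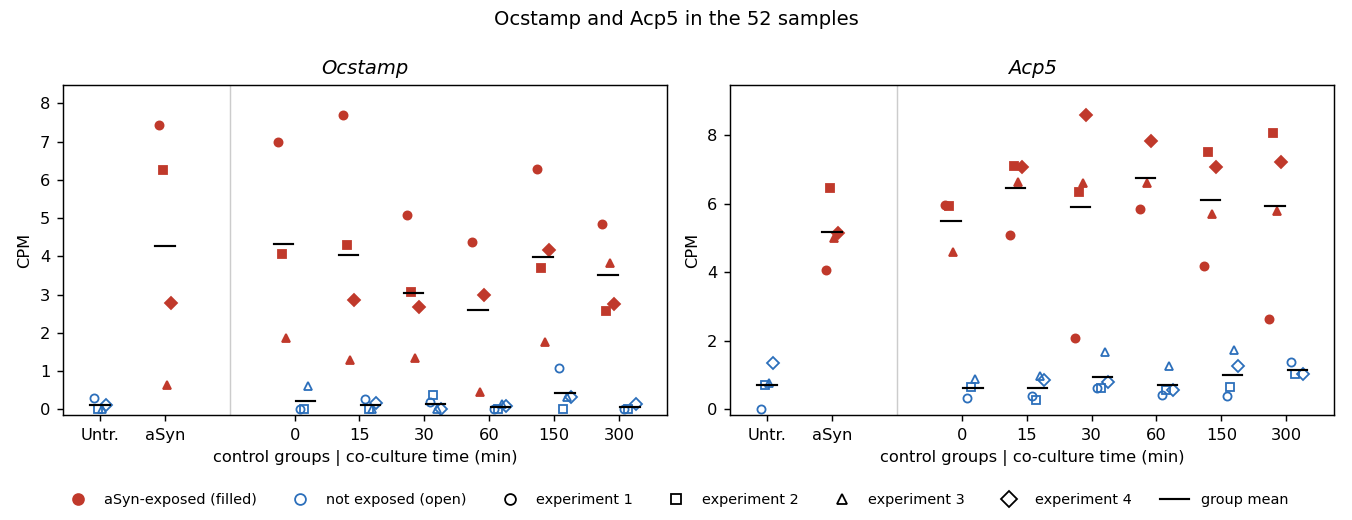
Ocstamp (left) and Acp5 (right) in CPM in each of the 52 samples, by control group (Untr. is untreated) and co-culture time in min. Filled red points are aSyn-exposed samples (aSyn alone and donors), open blue points are samples not exposed (untreated and acceptors), shapes give the experiment and bars the group mean. The acceptors of Ocstamp reach 1.08 CPM at most and those of Acp5 1.73 CPM, and at each time the donors lie above them.

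Acp5 lies on chromosome 9 (22126727 to 22135711, minus strand) and shares bases with 6530413G14Rik on the other strand. Use of strand in the counting is not stated, so reads of the pair cannot be told apart. Its promoter is shown because Acp5 was called between donors and acceptors at 5 of 6 times, more than any other of the 7 genes, and that of Ctsk, the other enzyme, because it was called at 0. RefSeq promoters (GRCm38.p6) matched 3 of the 7 genes, with 5 starts in all, 3 of them for Acp5. The 3′ reads do not show which start was used. The third Acp5 start is printed as the only 1 of the 3 that holds an M-box, so it was picked by its motif. Each line gives the 250 bases before the start, 5′ to 3′ on the gene's strand. The capitals mark the reverse complement of the M-box TCATGTG, a motif of the MITF family. The windows are chr9:22130599-22130848 (minus strand) and chr3:95498960-95499209 (plus strand).
Acp5 start 3: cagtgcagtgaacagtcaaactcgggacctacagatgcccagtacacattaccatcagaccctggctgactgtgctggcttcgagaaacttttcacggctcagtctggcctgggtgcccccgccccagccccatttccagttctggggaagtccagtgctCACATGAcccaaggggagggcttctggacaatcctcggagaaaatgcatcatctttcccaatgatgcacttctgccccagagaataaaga
Ctsk start 1: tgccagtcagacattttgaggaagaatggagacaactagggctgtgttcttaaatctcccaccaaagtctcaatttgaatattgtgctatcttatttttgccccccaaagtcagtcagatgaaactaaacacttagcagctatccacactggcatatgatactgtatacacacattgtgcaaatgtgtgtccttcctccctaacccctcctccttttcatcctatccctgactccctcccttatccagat
Both strands were searched for AP-1 (TGANTCA), the NFAT core (GGAAA), the M-box (TCATGTG), the E-box of MITF and TFE factors (CACGTG) and the PU.1 core (GAGGAA). A PU.1 core followed by A also holds an NFAT core. The third Acp5 start has 1 M-box, 90 bases before it, and 2 NFAT cores, and the other Acp5 starts have 1 NFAT core each. The Ctsk window has 2 PU.1 cores, and the Tnfrsf11a window has none of the 5 motifs. Of 32851 starts in the table, 3.25% hold the M-box, 55.6% the NFAT core, 23.3% the PU.1 core, 6.75% the AP-1 motif and 6.02% the E-box. These are matches of letters and nothing is drawn from them.

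Acp5 had 0, 16, 9 and 36 counts in untreated cells of experiments 1 to 4 (0, 0.698, 0.771 and 1.36 CPM). With aSyn alone it had 55, 91, 63 and 59 counts (4.05, 6.47, 5.01 and 5.15 CPM). The samples did not overlap, as in 4.5% of all genes, and the log2 difference was 2.78 (SE 0.50), given without a test.

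In donors Acp5 held that level. In experiment 1 the donors stood at 5.95, 5.08, 2.09, 5.84, 4.18 and 2.65 CPM at 0 to 300 min, and this experiment holds the 2 lowest donors of all. In experiments 2 to 4 every donor lay between 4.60 and 8.60 CPM, with 64 to 122 counts. Acceptors ran from 0.258 to 1.73 CPM with a median of 0.728 (2 to 26 counts), against a donor median of 6.47 CPM. The highest acceptor, in experiment 3 at 150 min, was below the lowest donor. Donors were thus above acceptors without overlap at every time, as in 0.304% of all genes, and in 21 of 21 pairs, as in 2.35%.

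Summed over 15, 30 and 150 min, Acp5 had 133 to 291 counts in donors and 17 to 62 in acceptors. Donors were 7.88-, 12.5-, 4.38- and 7.83-fold higher, 6.23 ± 1.75 against 0.871 ± 0.451 CPM (SD, n = 4 each). The log2 difference was 2.83 (SE 0.42, edgeR adjusted p 0.101). As for Ocstamp, edgeR called it with the block (2.90, SE 0.29, edgeR adjusted p 0.0206) and in the mean of 6 times, and over the 9 alternatives the adjusted p ran from 6.54e-13 to 0.522. At single times Acp5 was called higher in donors at 5 of the 6, and 0.038% of all genes were called at as many times or more. The times share the same experiments, so these calls are not separate repeats. The log2 differences were 3.10 (SE 0.60, edgeR adjusted p 0.0104) at 0 min, 3.32 (SE 0.53, 0.000358) at 15 min and 2.66 (SE 0.50, 0.00348) at 30 min. They were 3.24 (SE 0.54, 0.00123) at 60 min and 2.57 (SE 0.50, 0.00910) at 150 min. At 300 min the difference of 2.36 (SE 0.55) was not called (edgeR adjusted p 0.123, with the block 0.00341, range over alternatives 0.00160 to 0.955). Without experiment 1 Acp5 was called at 6 times, without experiment 2 at 2, without experiment 3 at 3 and without experiment 4 at 4. In fits of only the 2 groups it was called at 2 times, 0 and 15 min, while the differences of 2.66, 3.25 and 2.57 at 30, 60 and 150 min were not (edgeR adjusted p 0.124, 0.105 and 0.266).

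In both genes the 7 aSyn-exposed groups took the first 7 places by mean level. Among Ocstamp group means the order ran from 4.32 CPM in donors at 0 min to 2.60 CPM in donors at 60 min, and then from 0.431 CPM in acceptors at 150 min to 0.0491 CPM in acceptors at 300 min. In Acp5 it ran from 6.76 CPM in donors at 60 min to 5.17 CPM with aSyn alone, and then from 1.15 CPM in acceptors at 300 min to 0.618 CPM in acceptors at 0 min. Neighbours in that order overlapped in 13 of 13 steps for Ocstamp and in 12 of 13 for Acp5, the exception being the step between exposed and unexposed groups. No order of the times within donors or acceptors can be read from them. In acceptors Acp5 differed from untreated cells by -0.23 to 0.61 on the log2 scale over the 6 times, with an SE of 0.50 to 0.56.

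Ctsk lies on chromosome 3 (95499256 to 95509362, plus strand), and its levels were low throughout. Untreated cells had 0.706, 1.66, 0.943 and 1.17 CPM and aSyn-treated cells 1.92, 2.63, 2.54 and 2.44 CPM (7 to 38 counts). These samples did not overlap, as in 4.5% of all genes, and differed by 1.07 on the log2 scale (SE 0.38), again without a test. That gap rests on the summing of same-numbered untreated libraries. The 2 untreated libraries of experiment 2 had 32 and 6 counts, and the aSyn-treated sample of experiment 1 had 26. Summed over 15, 30 and 150 min, the donors of experiments 1 to 4 had 2.00, 2.12, 2.14 and 2.31 CPM and the acceptors 1.73, 1.23, 1.27 and 1.46 CPM. The sums did not overlap, as in 3.37% of all genes, but the donor excess in experiment 1 was small (1.15-fold, against 1.58- to 1.73-fold in the others). The log2 difference was 0.59 (SE 0.26, edgeR adjusted p 0.516). Ctsk was higher in donors in 19 of 21 pairs and was called at 0 of the 6 times. All 21 pairs were higher in donors in 2.35% of all genes, and the share with 19 or more was not counted. The mean over all 6 times in the fit of 14 groups did call it (0.75, edgeR adjusted p 0.000597, range over alternatives 0.000597 to 0.853). That fit counts libraries of an experiment as separate samples and called 25.6% of all genes.

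Dcstamp lies on chromosome 15 (39745930 to 39760938, plus strand). It did not follow Ocstamp. Untreated cells had 7.06, 2.75, 1.46 and 4.83 CPM and aSyn-treated cells 14.1, 3.34, 1.75 and 0.698 CPM in experiments 1 to 4. Exposed samples were the higher in experiment 1, with a median of 13.5 CPM (9.19 to 15.2, 7 samples) against 7.22 CPM (5.18 to 8.98, 7 samples) in those not exposed. In experiment 2 the order was the other way, with a median of 2.40 CPM in exposed samples and 3.84 CPM in the others. In experiment 3 both were low, with medians of 0.798 and 0.827 CPM. In experiment 4 the exposed samples had a median of 0.485 CPM (0.159 to 1.72, 2 to 22 counts) and the others 4.72 CPM (0.259 to 6.18, 3 to 128 counts), a wide gap in the medians with ranges that overlap.

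Summed per experiment, the donor minus acceptor difference of Dcstamp was 0.67, -1.05, 0.18 and -2.25 on the log2 scale in experiments 1 to 4. The fit gave 0.10 (SE 1.09, edgeR adjusted p 0.987), and with the block -0.56, so no direction was found. Donors were higher in 9 of 21 pairs, and Dcstamp was called at 0 of the 6 times. The acceptors of experiment 4 varied among themselves as well. They had 0.259 CPM at 15 min (3 counts), 4.62 CPM at 30 min, 5.64 CPM at 60 min, 0.632 CPM at 150 min (8 counts) and 6.18 CPM at 300 min.

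Atp6v0d2 lies on chromosome 4 (19876841 to 19922605, minus strand). In experiments 1 to 3 it was abundant in all cells, from 95.3 to 198 CPM in exposed samples and from 70.2 to 180.4 CPM in the others. In experiment 4 the 6 exposed samples had 4.89 CPM with aSyn alone and 7.14, 10.7, 6.82, 5.98 and 5.41 CPM in donors from 15 to 300 min (56 to 124 counts). The 6 samples of experiment 4 that were not exposed had 68.4 to 119 CPM (794 to 2365 counts). The low values are thus those of exposed cells in 1 experiment only, in each of its 6 exposed libraries.

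Summed over 15, 30 and 150 min, the Atp6v0d2 difference was 0.72, 0.39, -0.15 and -3.52 on the log2 scale in experiments 1 to 4. Donors of experiment 4 were 11.5-fold lower than its acceptors, and its aSyn-treated cells 18.2-fold lower than its untreated cells. The fit over all 4 experiments gave -0.01 (SE 0.65, edgeR adjusted p 0.997), and without experiment 4 the difference was 0.35. Ranked by how far experiment 4 fell below the mean of the other 3, Atp6v0d2 was at place 34 of 12672 genes and Dcstamp at place 302. Ocstamp (0.34 above the mean of the others) and Acp5 (0.08 above) showed no such gap.

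Other genes moved with Atp6v0d2 in that experiment, and their part in the result was not tested. The microglial markers summed to 1512 to 1769 CPM in its donors and 2396 to 2848 CPM in its acceptors. Trem2, a myeloid receptor of osteoclast and microglial differentiation, differed by -0.41, -0.71, -0.69 and -3.95 in experiments 1 to 4. The integrin subunit Itgb3, part of the receptor by which osteoclasts hold on to bone, differed by -0.90, -1.02, -0.16 and -4.70, and the AP-1 factor Batf by 0.38, 0.96, 0.82 and 3.46. These 3 genes were picked after their values were seen. Their values are log2 differences of the summed donors and acceptors.

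**Figure D2:**
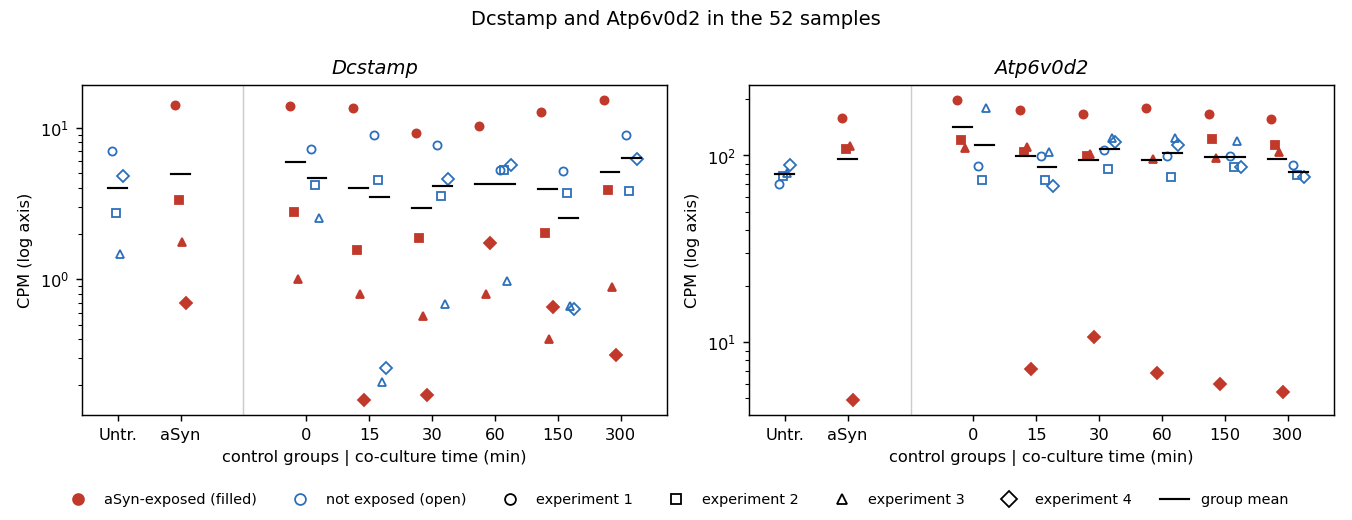
Dcstamp (left) and Atp6v0d2 (right) in CPM on log axes in each of the 52 samples, by control group (Untr. is untreated) and co-culture time in min. Filled red points are aSyn-exposed samples, open blue points are samples not exposed, shapes give the experiment and bars the group mean. The 6 filled diamonds of Atp6v0d2 between 4.89 and 10.7 CPM are the exposed samples of experiment 4, and Dcstamp is highest in the filled circles of experiment 1.

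Tnfrsf11a lies on chromosome 1 (105780718 to 105847981, plus strand) and encodes RANK. Untreated cells had 114, 113, 119 and 102 CPM and aSyn-treated cells 89.2, 136, 108 and 118 CPM, so the ranges overlap, and the log2 difference was 0.01 (SE 0.23). Donors and acceptors overlapped at 0 min, where donors had 87.7, 122 and 97.1 CPM and acceptors 96.7, 127 and 86.4 CPM. From 15 to 60 min donors lay between 85.4 and 129.8 CPM and acceptors between 55.8 and 112 CPM. At 150 min donors of experiments 1 to 4 had 148, 159, 90.9 and 157 CPM against 95.5, 108, 74.3 and 56.8 CPM in acceptors. Experiment 3 was the exception there, its donor overlapping the acceptors of the other experiments.

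At 150 min the log2 difference of Tnfrsf11a was 0.73 (SE 0.23). It was not called (edgeR adjusted p 0.215), but was with the block (0.73, SE 0.17, edgeR adjusted p 0.00908, range over alternatives 0.00908 to 0.645), when 5.19% of all genes were called. At 300 min donors had 125, 147, 96.3 and 195 CPM and the 3 acceptors 108, 110.4 and 90.5 CPM, a log2 difference of 0.45 (SE 0.25, edgeR adjusted p 0.836). Summed over 15, 30 and 150 min, donors were 1.23-, 1.27-, 1.29- and 2.31-fold higher in experiments 1 to 4, 118 ± 23.3 against 81.5 ± 22.4 CPM (SD, n = 4 each). That difference, 0.53 (SE 0.22), was not called (edgeR adjusted p 0.507, with the block 0.147, range over alternatives 0.00342 to 0.782, the lowest in the mean of 6 times). It came to 0.33 with experiment 4 left out. Donors were higher in 18 of 21 pairs, and the share of all genes with as many was not counted. Set against untreated cells, acceptors differed by -0.53, -0.42, -0.47 and -0.42 at 15, 30, 60 and 150 min (SE 0.23 each) and by -0.12 at 0 and 300 min (SE 0.25 each), while donors at 150 and 300 min were 0.30 and 0.32 (SE 0.23 each) above aSyn-treated cells. Both are descriptions with no test.

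Nfatc1 was the most even of the 7 genes. It shares bases with AC123818.1 on the other strand, and stood between 21.8 and 42.8 CPM in all samples. Untreated cells had 32.7, 38.3, 26.4 and 34.6 CPM and aSyn-treated cells 27.6, 35.7, 36.0 and 32.3 CPM. Summed over 15, 30 and 150 min, donors had 34.2 ± 1.57 and acceptors 33.6 ± 3.15 CPM (SD, n = 4 each), a log2 difference of 0.03 (SE 0.12, edgeR adjusted p 0.968). In experiments 1 and 2 donors were the lower and in experiments 3 and 4 the higher. At 300 min the means were 29.1 ± 1.94 CPM (SD, n = 4) in donors and 27.2 ± 4.68 CPM (SD, n = 3) in acceptors, the lowest of the donor and acceptor groups.

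**Figure D3:**
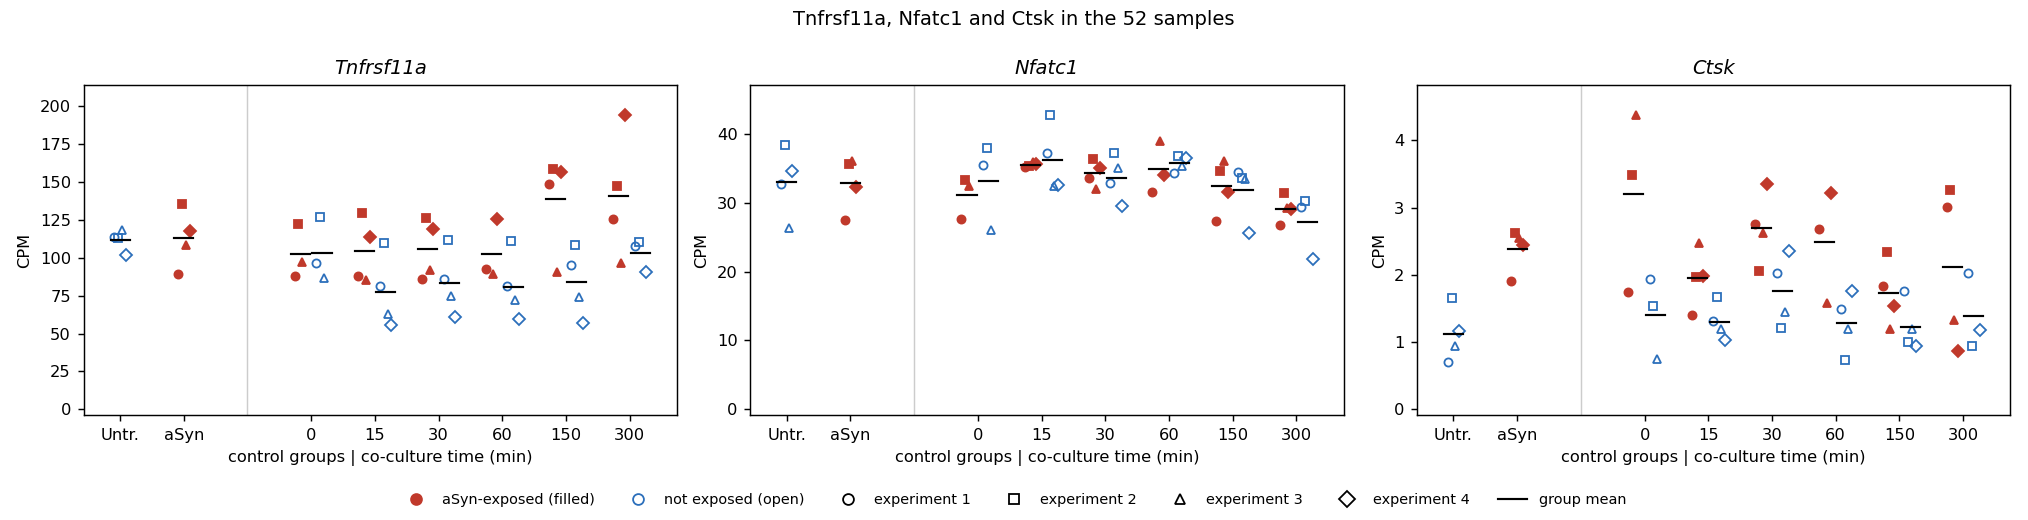
Tnfrsf11a (left), Nfatc1 (middle) and Ctsk (right) in CPM in each of the 52 samples, by control group (Untr. is untreated) and co-culture time in min. Filled red points are aSyn-exposed samples, open blue points are samples not exposed, shapes give the experiment and bars the group mean. Tnfrsf11a donors reach 159 CPM at 150 min and 195 CPM at 300 min, while Nfatc1 stays between 21.8 and 42.8 CPM in every group.

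**Figure D4:**
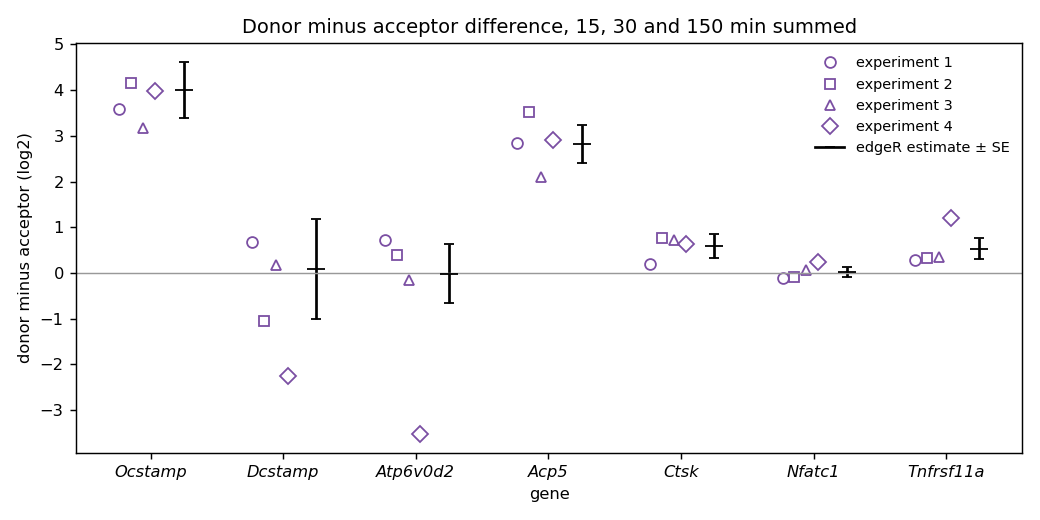
Donor minus acceptor difference on the log2 scale for the 7 genes, with counts summed over 15, 30 and 150 min. Each open symbol is 1 experiment, and the black bar is the edgeR estimate with its standard error. Ocstamp (4.01) and Acp5 (2.83) lie above 0 in each experiment, while experiment 4 has the lowest values of Atp6v0d2 (-3.52) and Dcstamp (-2.25).

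No change over co-culture time was found in any of the 7 genes. F tests of the differences from 0 min called 0 of 7 in donors, in acceptors, and for the change of the donor minus acceptor difference. Of all genes they called 0.0607% in donors, 0.00759% in acceptors and 0% for the difference. None of the 7 had an unadjusted p below 0.05 in these tests, and DESeq2 called 0 as well. With the replicate block the lowest adjusted p in donors was that of Tnfrsf11a (edgeR, 0.485). Against aSyn-treated cells, donors at the 6 times differed by -0.72 to 0.01 on the log2 scale in Ocstamp (SE 0.83 to 0.92) and by 0.09 to 0.39 in Acp5 (SE 0.46 to 0.49), given without a test.

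The rest of the osteoclast pathway, 79 genes listed by role, was read in the summed comparison. Of 68 that could be tested, edgeR called 0, where it called 0.00789% of all genes, so nothing is read from the 0. Of the 68, 12 had an unadjusted p below 0.05 (1211 of all 12672 genes), and DESeq2 called 3 (2.06% of all genes). The median log2 difference of the 68 was 0.03, against -0.01 for all genes. With the experiment as a block, 3 of the 68 were called higher and 0 lower, against 0.773% of all genes. These were Syk, the kinase behind the ITAM adaptors, Fosl1, an AP-1 factor, and Mmp9, a gelatinase of osteoclasts, named after their values were seen. Syk was 231.6 ± 83.9 against 90.0 ± 15.9 CPM (SD, n = 4 each), with a blocked log2 difference of 1.32 (SE 0.17, edgeR adjusted p 0.0380, without the block 0.147). Fosl1 was 1.97 ± 1.45 against 0.0552 ± 0.110 CPM (edgeR adjusted p 0.0435 with the block, 0.276 without). It was at 0 in 3 of the 4 acceptor sums and passed the filter through the donors only, so no fold is given and its call adds no support. Mmp9 varied widely, 88.7 ± 101 against 34.8 ± 55.9 CPM, with a blocked difference of 2.02 (SE 0.30, edgeR adjusted p 0.0496). Without the block the difference was 1.35 (SE 1.15, edgeR adjusted p 0.755), and DESeq2 did not call it (adjusted p 0.757). The 3 genes that DESeq2 called were Syk, Fosl1 and Cd44.

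By role, edgeR without the block called 0 members in each of the 7 role groups, against 0.00789% of all genes, from which nothing is read. Of the ligands and growth factors, 3 of 5 were tested, with a median of 0.53, and Csf1, which encodes M-CSF, stood at 12.3 ± 10.8 in donors and 5.08 ± 2.88 CPM in acceptors (log2 1.27, SE 0.60, edgeR adjusted p 0.551). Tnfsf11, which encodes RANKL, and its decoy receptor gene Tnfrsf11b are not among the genes listed. Of 9 receptors and adaptors 6 were tested (median 0.04), of 11 signalling genes 10 (median -0.07), and of 17 transcription factors all 17 (median 0.10). Of 10 inhibitors 8 were tested (median -0.0016), of 13 fusion genes 11 (median -0.09), and of 14 genes of acid and matrix resorption 13 (median 0.14). In the fusion group Cd44, a hyaluronan receptor, stood at 380 ± 15.4 in donors and 234.8 ± 29.4 CPM in acceptors (log2 0.69, SE 0.14, edgeR adjusted p 0.160, with the block 0.0539, DESeq2 6.33e-06). Csf1 and Cd44 were also named after their values were seen. In the contrast that the choice of genes used, 3 of 70 listed genes were called higher with aSyn alone and 2 lower, against 1.6% and 0.896% of all genes, from which nothing is read.

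Across the 14 group means of log2 CPM, the genes most like Ocstamp were AB124611 (r = 0.98), Bcl2a1a (0.98), Acp2 (0.98), Slc13a3 (0.98) and Ergic1 (0.97). Slc13a3 stood at 36.3 CPM in the median donor and 3.78 CPM in the median acceptor, Bcl2a1a at 42.4 and 5.98 CPM, and Acp2, a lysosomal acid phosphatase, at 358 and 179 CPM. Bcl2a1a has near-identical copies, so its counts are uncertain. Of the 6 other genes described here, Acp5 came at place 30 of 13168 (r = 0.97), Ctsk at 895 (0.82) and Tnfrsf11a at 2112 (0.63). The values for Nfatc1 (-0.005), Dcstamp (-0.48) and Atp6v0d2 (-0.53) were near or below 0. The 14 means share experiments and libraries and mostly trace the exposed against the unexposed groups, so r is a description only.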

How the data were processed

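RNA was measured in 54 QuantSeq 3′ forward libraries (50 bp single reads, per the labels' protocols). Gene counts and a normalized signal were deposited by the authors, per the file headers. STAR, Partek, DESeq2 and the build mm10 are named in the submitters' processing notes, and strand use is not given in the sources used here. The deposited signal was checked to be counts over size factors (100% of values within 0.051) and not used further. Groups and replicate numbers come from the labels. Same-numbered untreated libraries were summed, since they differed by less (chi-square per degree of freedom 10.3 to 12.1) than others did (24.2 to 288).

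Tests were edgeR 4.0.16 quasi-likelihood F tests in R 4.3.3 with TMM, filterByExpr (minimum count 10) and Benjamini-Hochberg adjustment over all genes, called below 0.05. They ran on sums over 15, 30 and 150 min per experiment (12672 genes) and in a fit of 14 groups (13169 genes), and were tested on simulated data. Same-numbered libraries deviated together (correlation of deviations at least 0.199 in every pair, on average 0.339 to 0.563), so the numbers, taken from the titles, pair the samples. Fits with the replicate block, DESeq2 1.42.0, its size factors, no filter, only the 2 groups, and without each experiment were the alternatives.

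The members and lists were chosen with earlier results of these data known. The text names all 7 members, the 5 genes with the highest Pearson r with Ocstamp (prior count 2), and listed pathway genes called in the summed test, of which there were 0. The other genes it names were chosen after their values were seen. Gene positions are from GENCODE M21 (GRCm38). Without molecular identifiers, floors of 3 counts cover counting error only.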

Additional observations from a re-analysis of the deposited data

Results flagged for a closer look

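In 70 checks of single groups, 1 sample stood apart from its group in 7, where chance gives about 1 in 20. The measure is the gap to the nearest sample as a share of the group's range, on log2 CPM with a prior count of 2. In 4 of the 7 this was Atp6v0d2 in experiment 4. With aSyn alone its 4.89 CPM lay under the next value of 109 CPM (share 0.890). Among donors it had 7.14 against 104.9 CPM at 15 min (0.838), 5.98 against 96.9 CPM at 150 min (0.836) and 5.41 against 105 CPM at 300 min (0.878). These 4 share an experiment and so are not 4 separate events.

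Dcstamp had 0.968 CPM in the 60 min acceptor of experiment 3, against 5.24 CPM for the nearest other acceptor (0.956). Nfatc1 had 25.7 CPM in the 150 min acceptor of experiment 4, against 33.5 CPM (0.903). Tnfrsf11a had 90.9 CPM in the 150 min donor of experiment 3, against 148 CPM (0.882). The cause was not tested for any of them.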

How the results depend on the processing

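Ocstamp and Acp5 stayed higher in donors under every alternative run. How many genes passed depended on the fit, and the cause was not tested. Shares are of the genes given an adjusted p in each fit, so DESeq2 and the fits with other filters have other denominators. Between donors and acceptors at 0, 15, 30, 60, 150 and 300 min, 0.251%, 0.888%, 0.805%, 0.418%, 0.167% and 0.0304% of genes were called, and with the replicate block 4.28%, 9.57%, 10.8%, 6.7%, 5.19% and 1.38%. DESeq2 called 0.714%, 1.75%, 1.88%, 1.01%, 0.726% and 0.152%. A fit of only the 2 groups called 0.367%, 0.158%, 0.113%, 0.0171%, 0.00869% and 0.0258%. Without 1 replicate each, the shares ran from 0.015% to 1.84%, 0.27% to 1.16%, 0.142% to 1.37%, 0.0764% to 0.612%, 0.06% to 0.222% and 0.015% to 0.0535%. In the summed comparison the share was 0.00789%, with the block 0.773%, by DESeq2 2.06%, with no filter 0.0121%, for the mean of 6 times 25.6% and without a replicate 0% to 0.0476%. Over time, 0.0607% of genes were called in donors (0.577% with the block, 0.229% by DESeq2, 0.0075% to 0.199% without a replicate) and 0.00759% in acceptors (0.137%, 0.259%, and 0% to 0.0225%). For the change of the difference it was 0%, 0.0456%, 0.0304% and 0% to 0%. For aSyn against untreated cells it was 2.5%, with the block 19.2%, with the 6 untreated libraries kept apart 4.67% and without a replicate 0.557% to 2.3%. The block changed the calls of Ocstamp, Acp5 and Tnfrsf11a given above and no other call of the 7 genes.

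Directions turned for differences smaller than their SE in the fit with no block, not all of them near 0. Dcstamp at 0 min went from 0.35 (SE 1.35) to -0.38 with the block, and Atp6v0d2 at 300 min from 0.23 (SE 0.84) to -0.31. For aSyn against untreated cells Dcstamp went from 0.31 (SE 1.17) to -0.30 and Atp6v0d2 from 0.28 (SE 0.78) to -0.23. The summed Dcstamp difference was -0.56 with the block and -1.16 to 0.38 without a replicate. That of Atp6v0d2 was 0.00082 with no filter, 0.069 for the mean of 6 times and -0.39 to 0.35 without a replicate (0.056 without experiment 3, 0.35 without experiment 4). That of Nfatc1 ran from -0.045 to 0.073, and that of Tnfrsf11a at 0 min from -0.087 to 0.049 (0.033 without experiment 2). Depth limits Ocstamp in acceptors, where most libraries had 3 counts or fewer. Among the 5 genes most like Ocstamp, 3 remained with a prior count of 0.5.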
